A study of Mus musculus with 4 samples.

Results

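A set of 10 genes of naive pluripotency was compared by RNA-seq between day 0 and day 6 of differentiation of female mouse embryonic stem cells (mESCs). Most of the 10 are transcription factors, and all are called factors here. They are Nanog, Klf2, Klf4, Klf5, Esrrb, Zfp42, Tbx3, Prdm14, Tfcp2l1 and Dppa3, which were picked by name from the 25965 genes of the deposited table; each was found in 1 row, and all 10 were among the 13264 genes with a mean log2 CPM (reads of a gene scaled to the library total, on the log2 scale) of at least 0 over the 4 libraries. Prdm14 passed that filter only through its day 0 level, so passing it says nothing about its loss. The cells were lines of an FVB/CAST F1 background, expanded in medium with 2i (inhibitors of MEK and GSK3) and LIF, and then weaned in steps into DME HiHi, a serum medium without LIF. The Day 0 library came from cells not yet transduced. The other 3 libraries came from day 6 cells that had received a hairpin by retrovirus on day 2 and puromycin selection from day 3: Nons, the nonsilencing control, and Smarca4.4 or Smarca4.6, which are 2 separate hairpins against Smarca4. Both hairpin libraries and the Nons library therefore share the differentiation, the virus and the selection, which the Day 0 library lacks, so time in differentiation medium, transduction and selection cannot be told apart in any comparison with day 0. The groups follow the sample titles, because another label field gives Smarcc knockdown for every day 6 library, even for Nons.

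Naive pluripotency is the ground state of the preimplantation epiblast, and mESCs hold it in 2i and LIF through a network of transcription factors that bind and activate one another's genes. GSK3 inhibition relieves repression by Tcf7l1, MEK inhibition removes the FGF signal that drives cells onward, and LIF acts through Stat3. When these are withdrawn the network is dismantled while Pou5f1 (Oct4) persists, and cells pass through a formative state towards lineage choice. Smarca4 (Brg1) is an ATPase of the BAF complex, which moves nucleosomes and is bound at many genes of this network in mESCs.

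The table holds 1 library per group, each numbered replicate 3 in the titles, so no difference given here has a replicate check, and no p-value was computed. Depth ran from 18599402 reads at day 0 to 47143738 in Smarca4.4, with 45759793 for Nons and 36495575 for Smarca4.6. A level of 3 reads, the detection limit used here, was 0.161 CPM at day 0 and between 0.0636 and 0.0822 CPM at day 6. Intervals are exact (Clopper-Pearson) 95% intervals from the reads of each gene. They cover counting error only and compare 2 libraries, not 2 conditions. In a bulk library, fewer cells expressing a gene and less RNA per expressing cell cannot be told apart.

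The hairpins were first set against their target, because every comparison between day 6 libraries rests on them. The 22-base guide of each is shown 5′ to 3′ from the study's oligo list, with its seed (bases 2 to 8) in capitals.
Nons: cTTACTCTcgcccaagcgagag
Smarca4.4: tTTATTACtgtctgactccagt
Smarca4.6: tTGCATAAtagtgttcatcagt
The reverse complement of the Smarca4.4 guide matched all 22 bases of Smarca4 transcripts and of no other gene in GENCODE M21, at chr9:21703327-21703348 on the plus strand (GRCm38), in the 3′ untranslated part of exon 34 of 34. That of Smarca4.6 likewise matched Smarca4 alone, at chr9:21670504-21670525 in the coding part of exon 22. The Nons guide had no full match in any transcript. Smarca4 itself (chr9:21616169-21704230) stood at a log2 CPM of 7.93 at day 0 and of 7.84, 7.04 and 7.44 in the Nons, Smarca4.4 and Smarca4.6 libraries, so that Smarca4.4 cells held 57.3% (95% interval 55.6 to 59.2) and Smarca4.6 cells 75.8% (73.5 to 78.3) of the Nons level. Smarca4 mRNA was thus only in part lower than in Nons, and lower with Smarca4.4 than with Smarca4.6. Of all genes tested, 0.792% lay further below Nons than Smarca4 did with Smarca4.4, and 8.47% with Smarca4.6.

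All 10 factors were lower in the Nons library at day 6 than at day 0, and 8 of the 10 were at least 16-fold lower. Their median difference was -5.05 on the log2 scale, against 0.03 over all 13264 genes tested. The fall was at least 2-fold for all 10, beside 12.3% of the genes tested, and at least 16-fold for 8, beside 0.829%. Prdm14 was the factor with the deepest loss, at -7.71 (-8.52 to -7.00), a value that rests on 16 reads in Nons. The summed level of the 10 was 3688 CPM at day 0 and 169.7, 154 and 146 CPM in the Nons, Smarca4.4 and Smarca4.6 libraries.

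**Figure D1:**
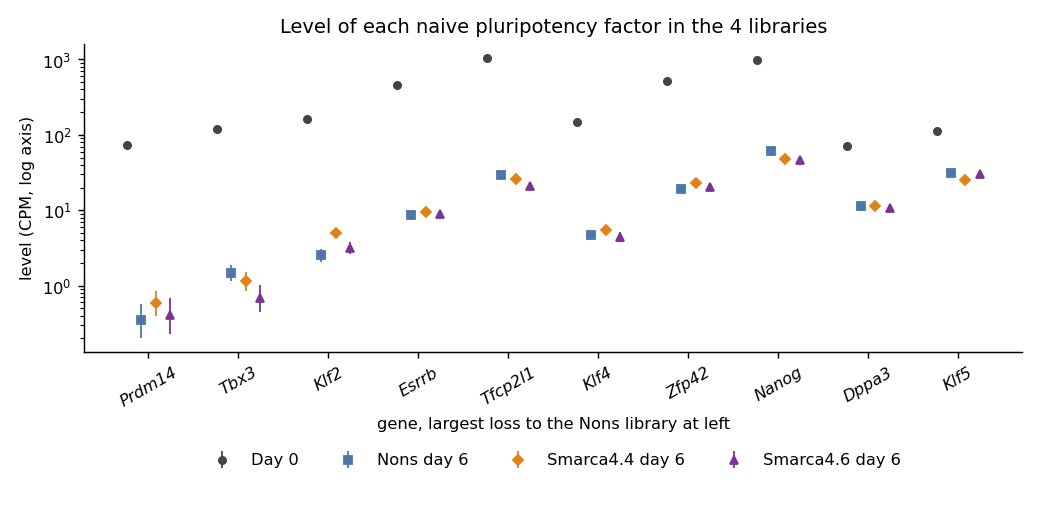
Level of each of the 10 factors in the 4 libraries, in CPM on a log axis; points are single libraries and bars are exact 95% counting intervals. Every day 0 point lies above the 3 day 6 points of its gene; among the day 6 points those of Tbx3 (0.685 to 1.49 CPM) and Klf2 (2.51 to 4.96 CPM) lie apart.

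By CPM, which is not scaled to gene length, Nanog, Esrrb and Tfcp2l1 were among the factors with the highest levels at day 0. Nanog (chr6:122707489-122714633), the homeodomain protein that lets cells self-renew without LIF when it is overexpressed, had 999 CPM at day 0 and 60.7, 47.2 and 46.3 CPM in the Nons, Smarca4.4 and Smarca4.6 libraries. It was thus high at day 0 and low in all day 6 libraries, with 6.07% (5.83 to 6.32) of its day 0 level left in Nons. Esrrb (chr12:86361117-86521628), an orphan nuclear receptor and a target of both Nanog and the GSK3 branch, had 459 CPM at day 0 and 8.54, 9.42 and 8.80 CPM in Nons, Smarca4.4 and Smarca4.6. Its remaining level in Nons was 1.86% (1.68 to 2.06), a smaller share than Nanog kept. Tfcp2l1 (chr1:118627945-118685167), a CP2 family factor downstream of LIF and GSK3 inhibition, had 1031 CPM at day 0 and, in the same order of day 6 libraries, 29.5, 25.9 and 20.7 CPM. It kept 2.86% (2.70 to 3.02) in Nons and was lowest in Smarca4.6.

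Tbx3 and Prdm14 came nearest to the detection limit at day 6. Tbx3 (chr5:119670669-119684724), a T-box factor that acts downstream of LIF, had 2254 reads (121 CPM) at day 0 and 68, 54 and 25 reads (1.49, 1.15 and 0.685 CPM) in Nons, Smarca4.4 and Smarca4.6. An antisense gene, Gm2301, shares 697 bases with it; the strand setting of the counting was not stated, so reads of the pair cannot be told apart there, but Gm2301 had only 38, 0, 2 and 1 reads of its own in the 4 libraries. Prdm14 (chr1:13113457-13127163), a PR domain protein that holds down FGF signalling and de novo DNA methyltransferases, had 1358 reads (73.0 CPM) at day 0 and 16, 28 and 15 reads (0.350, 0.594 and 0.411 CPM) at day 6. Only 0.479% (0.273 to 0.781) of the Prdm14 level and 1.23% (0.949 to 1.56) of the Tbx3 level was left in Nons. Their day 6 values were above the 3-read limit in every library but rest on few reads.

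The 3 Krüppel-like factors, which bind similar GC-rich sites and can stand in for one another in self-renewal, did not move alike. Klf2 (chr8:72319033-72321656) had 163 CPM at day 0 and 2.51, 4.96 and 3.15 CPM in Nons, Smarca4.4 and Smarca4.6. Klf4 (chr4:55527143-55532466), which is induced by Stat3, had 146 CPM at day 0 and 4.63, 5.52 and 4.38 CPM. Klf5 (chr14:99298691-99313405) had 111 CPM at day 0 and 31.5, 24.9 and 29.98 CPM. Klf2 kept 1.54% (1.27 to 1.86) in Nons, Klf4 kept 3.17% (2.74 to 3.65), and Klf5 kept 28.4% (26.5 to 30.4), the smallest loss of the 10 factors. Their order on the scale of CPM per kilobase of exon was Klf2, Klf4, Klf5 at day 0 (88.3, 47.9 and 21.3) and the reverse in Nons (1.36, 1.52 and 6.05), although Klf2 and Klf4 did not differ beyond counting error there. Klf5 made up 13.5% of the summed CPM per kilobase of the 3 at day 0, and 67.7%, 51.5% and 64.7% of it in the Nons, Smarca4.4 and Smarca4.6 libraries. The ratio of Klf5 to Klf2 reads, which does not depend on the scaling between libraries, was 0.680 (0.642 to 0.719) at day 0 and 12.5 (10.4 to 15.3) in Nons. With Smarca4.4 it was 5.01 (4.35 to 5.79), and with Smarca4.6 it was 9.51 (7.84 to 11.6).

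**Figure D2:**
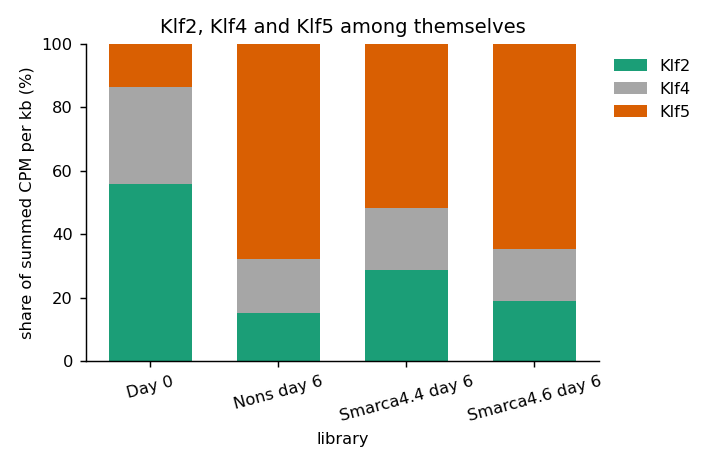
Share of Klf2, Klf4 and Klf5 in their own summed level per kilobase of exon (percent, stacked to 100) in each library, 1 library per bar. Klf2 is the largest part at day 0 (56.0%) and Klf5 the largest part in all 3 day 6 libraries (51.5% to 67.7%).

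Zfp42 and Dppa3 are used as markers of the naive state more than as its regulators. Zfp42 (Rex1, chr8:43295068-43307009), a zinc finger protein whose silencing marks exit from the naive state, had 512 CPM at day 0 and 19.2, 23.0 and 20.4 CPM in the Nons, Smarca4.4 and Smarca4.6 libraries. Dppa3 (Stella, chr6:122626410-122630272), a maternal factor that guards DNA methylation in the early embryo and is also made by germ cells, had 71.7 CPM at day 0 and 11.3, 11.4 and 10.8 CPM in those day 6 libraries. Zfp42 kept 3.74% (3.49 to 4.01) in Nons, while Dppa3 kept 15.8% (14.2 to 17.5), and the 3 day 6 levels of Dppa3 lay within each other's intervals. Nanog and Dppa3 are neighbours on chromosome 6, 77.2 kb apart with no other listed gene between them, yet Dppa3 kept the larger share of its day 0 level.

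**Figure D3:**
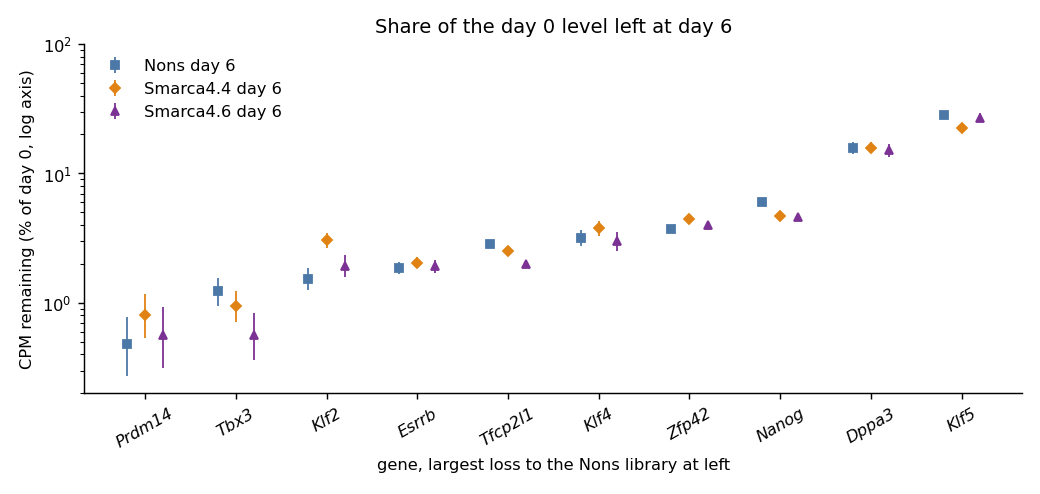
Level left at day 6 as a percent of day 0 (log axis) for each factor in the 3 day 6 libraries, ordered by the loss in Nons; bars are exact 95% counting intervals. Klf5 and Dppa3 stand above the other 8 factors in all 3 libraries, and Prdm14 and Tbx3 lie at the bottom.

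In order of loss to the Nons library the factors ran Prdm14 (-7.71 on the log2 scale), Tbx3 (-6.35), Klf2 (-6.02), Esrrb (-5.75), Tfcp2l1 (-5.13), Klf4 (-4.98), Zfp42 (-4.74), Nanog (-4.04), Dppa3 (-2.66) and Klf5 (-1.82). Neighbours in this order whose intervals overlapped were Tbx3 with Klf2, Klf2 with Esrrb, Tfcp2l1 with Klf4, and Klf4 with Zfp42. The steps from Prdm14 to Tbx3, Esrrb to Tfcp2l1, Zfp42 to Nanog, Nanog to Dppa3 and Dppa3 to Klf5 were larger than counting error. The comparisons of the 2 hairpin libraries with day 0 share that day 0 library. In them all 10 factors were again at least 2-fold lower, with medians of -4.88 and -5.35; of all genes tested, 11.0% were so with Smarca4.4 and 11.3% with Smarca4.6.

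The order of the levels also differed between day 0 and day 6. By CPM per kilobase of exon, Nanog was the highest in all 4 libraries (446 at day 0 and 27.1, 21.1 and 20.7 at day 6). Zfp42, Tfcp2l1 and Klf2 followed at day 0 with 272, 109 and 88.3, whereas Dppa3, Zfp42 and Klf5 followed in Nons with 12.7, 10.2 and 6.05. Dppa3 was 6.77% of the summed level per kilobase at day 0 and 19.9% in Nons. Tbx3 was lowest at day 0 with 18.3, and Prdm14 lowest in Nons with 0.136. In Nons the neighbours Klf4 and Esrrb, Esrrb and Klf2, and Tbx3 and Prdm14 had overlapping intervals, and at day 0 only Dppa3 and Esrrb did.

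With the Smarca4 hairpins the 10 factors lay on both sides of their Nons levels, Klf2 farthest above (1.98 times Nons with Smarca4.4) and Tbx3 farthest below (46.1% of Nons with Smarca4.6). Relative to Nons the median difference of the 10 factors was 0.07 on the log2 scale with Smarca4.4 and -0.07 with Smarca4.6, against 0.04 and 0.06 over all genes tested. With Smarca4.4 none of the 10 was 2-fold or more away from Nons, beside 1.19% of genes tested. With Smarca4.6 only Tbx3 was, beside 1.82%. The comparisons of the 2 hairpins with Nons share the Nons library, so values are given side by side.

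**Figure D4:**
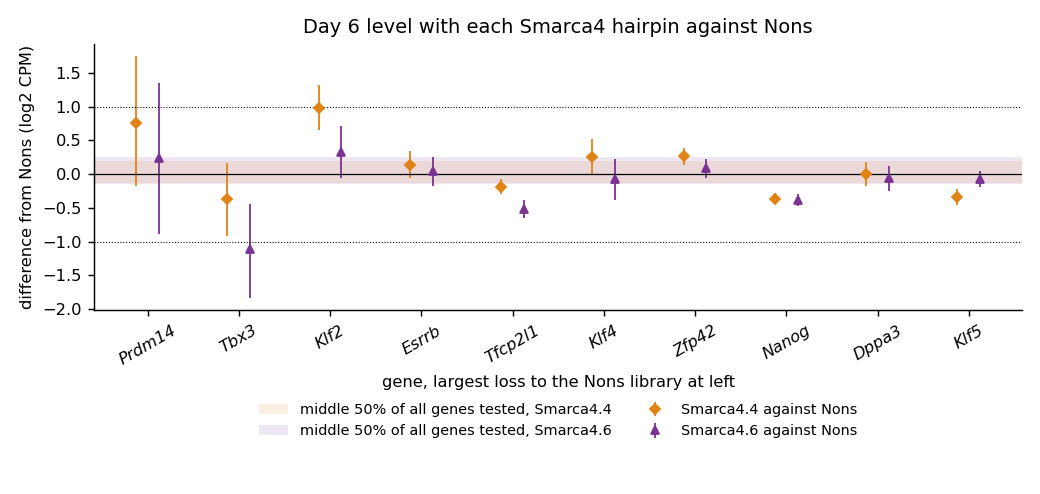
Difference of each factor from Nons (log2 CPM) with Smarca4.4 and Smarca4.6, with exact 95% counting intervals; shaded bands hold the middle 50% of all genes tested and dotted lines mark 2-fold. Klf2 with Smarca4.4 (0.98) and Tbx3 with Smarca4.6 (-1.12) lie farthest from 0.

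Nanog was lower by a like amount with both hairpins, -0.36 (-0.44 to -0.28) with Smarca4.4 and -0.39 (-0.48 to -0.30) with Smarca4.6. Tfcp2l1 was also lower with both, by -0.19 (-0.30 to -0.07) and -0.51 (-0.64 to -0.38). Tbx3 was -0.38 (-0.92 to 0.16) and -1.12 (-1.84 to -0.44), the second value resting on 25 reads against 68. These 3 were the factors whose interval lay below 0 with Smarca4.6, beside 24.4% of genes tested. With Smarca4.4 there were also 3 such factors (Nanog, Tfcp2l1 and Klf5), beside 24.3%, so their number is near the background.

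Klf2 was the factor that stood highest above Nons. Its level was 1.98 times that of Nons with Smarca4.4, a difference of 0.98 (0.65 to 1.32) just inside 2-fold, and 0.33 (-0.06 to 0.71) with Smarca4.6. Zfp42 was 0.26 (0.13 to 0.39) above Nons with Smarca4.4 and 0.09 (-0.06 to 0.23) with Smarca4.6. These 2 were the only factors of the 10 with an interval above 0 with Smarca4.4, beside 34.4% of genes tested. With Smarca4.6 there were 0 of 10, beside 39.6%. Even at its highest day 6 value, in Smarca4.4, Klf2 held 3.04% (2.65 to 3.48) of its day 0 level.

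The other factors were close to Nons. Dppa3 differed by 0.00 (-0.17 to 0.18) with Smarca4.4 and -0.07 (-0.26 to 0.13) with Smarca4.6. Esrrb differed by 0.14 (-0.06 to 0.34) and 0.04 (-0.18 to 0.26), and Klf4 by 0.25 (-0.02 to 0.52) and -0.08 (-0.39 to 0.22). For these 3 a change of 1.5-fold or more in either direction lay outside every interval. Klf5 was -0.34 (-0.45 to -0.23) with Smarca4.4 and -0.07 (-0.19 to 0.04) with Smarca4.6. Prdm14 was 0.76 (-0.17 to 1.75) and 0.23 (-0.89 to 1.34), so its intervals include both 0 and a 2-fold difference.

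Set directly against each other, the 2 hairpin libraries differed by a median of 0.25 for the 10 factors, Smarca4.4 being the higher, against -0.03 over all genes tested. None of the 10 was 2-fold different, beside 0.656% of genes tested. Of the 10, 5 had an interval above 0, beside 21.9%: Klf2 at 0.66 (0.33 to 0.99), Tbx3 at 0.74 (0.03 to 1.49), Klf4 at 0.33 (0.04 to 0.62), Tfcp2l1 at 0.33 (0.20 to 0.46) and Zfp42 at 0.17 (0.04 to 0.31). Klf5 alone had one below 0, at -0.27 (-0.39 to -0.15), beside 30.9%. The Smarca4.4 library thus had the higher level of 9 of the 10 factors, 4 of them with an interval that held 0, where 44.2% of genes tested were higher. Smarca4 itself differed by -0.40 (-0.45 to -0.35) between the 2 hairpin libraries. Nons had the most Smarca4 of the day 6 libraries. Against it, 6 of the 10 factors were higher with Smarca4.4, beside 56.5% of genes tested. With Smarca4.6, 4 of the 10 were higher, beside 58.9%. With 1 library per hairpin, the level of Smarca4, the hairpin and the library cannot be told apart.

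Promoter windows of 300 bases (250 before to 50 after the annotated start, RefSeq, GRCm38.p6) were found for 6 of the 10 factors. There were 8 windows because Nanog and Esrrb have 2 starts each. No window was available for Klf5, Tbx3, Prdm14 and Dppa3. Windows of 3 are shown, since these genes were lost together but have unlike promoters. All matches to 3 motifs are in capitals on either strand: ATGCAAAT, the octamer bound by Pou5f1, TTCNNNGAA, which Stat3 binds, and CCNCNCCC, which Krüppel-like factors bind.
Nanog, chr6:122707239-122707538, plus strand: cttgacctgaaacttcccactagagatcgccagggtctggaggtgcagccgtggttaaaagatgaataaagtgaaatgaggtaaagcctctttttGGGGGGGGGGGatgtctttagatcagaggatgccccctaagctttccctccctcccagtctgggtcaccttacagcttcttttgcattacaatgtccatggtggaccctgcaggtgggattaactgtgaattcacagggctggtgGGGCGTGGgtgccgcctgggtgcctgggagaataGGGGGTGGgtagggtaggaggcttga
Klf2, chr8:72318812-72319111, plus strand: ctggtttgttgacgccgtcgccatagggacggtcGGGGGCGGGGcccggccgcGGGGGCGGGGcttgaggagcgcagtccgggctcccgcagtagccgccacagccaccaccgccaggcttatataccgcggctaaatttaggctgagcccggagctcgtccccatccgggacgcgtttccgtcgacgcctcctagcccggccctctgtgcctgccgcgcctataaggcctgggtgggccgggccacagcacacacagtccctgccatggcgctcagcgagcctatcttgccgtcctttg
Zfp42, chr8:43306960-43307259, minus strand: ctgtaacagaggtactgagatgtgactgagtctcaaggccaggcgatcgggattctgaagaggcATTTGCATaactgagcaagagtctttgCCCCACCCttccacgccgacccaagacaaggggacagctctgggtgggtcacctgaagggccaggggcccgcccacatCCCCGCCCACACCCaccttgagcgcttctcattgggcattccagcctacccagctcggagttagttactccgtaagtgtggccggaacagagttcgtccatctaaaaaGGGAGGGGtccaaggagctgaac
The Nanog window held 4 CpG dinucleotides, the Zfp42 window 11 and the Klf2 window 32, where the median of 32544 windows of all genes was 7. Klf4 had 40 and Tfcp2l1 21, while both Esrrb windows had 7. All 6 factors with a window were at least 16-fold lower in Nons, and Klf5 and Dppa3, the least lost, had none. These windows therefore cannot show whether loss differed with CpG content. The octamer was found in the Zfp42 window alone, and in 1.75% of all windows. The Stat3 motif was found in 1 Esrrb window and in 8.33% of all windows. The Krüppel-like motif was found in all 8 windows, and in 49.7% of all windows. AAGGTCA, which Esrrb binds, TCAAAG, bound by Tcf7l1, and CCTGCTG, bound by Zic factors, were in none of the 8, and in 4.71%, 16.02% and 10.5% of all windows.

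Other genes of the naive network were lost less uniformly. Of 24 such genes, all tested, 18 were at least 2-fold lower and 2 at least 2-fold higher in Nons than at day 0, with a median of -2.34, beside 12.3% lower and 19.6% higher over all genes tested. The 2 higher were Utf1 and Fgfbp1, named after their values were seen. Pou5f1, which marks naive and later pluripotent cells alike, had log2 CPM values of 9.50 at day 0 and 9.84, 9.45 and 9.94 in the Nons, Smarca4.4 and Smarca4.6 libraries, so it was not lost. Its partner Sox2 was -3.30 (-3.37 to -3.23) from day 0 to Nons, and Nr0b1 (Dax1), a nuclear receptor of the network, was -6.99 (-7.46 to -6.56), between the losses of Prdm14 and Tbx3. Stat3, the effector of LIF, was -1.52 (-1.65 to -1.38) and Sall4 -1.02 (-1.07 to -0.96). Relative to Nons, 1 of the 24 was past 2-fold with each hairpin, beside 1.19% of genes tested with Smarca4.4 and 1.82% with Smarca4.6. It was Gbx2 in both, a homeobox gene that acts downstream of LIF, at 1.20 (0.66 to 1.76) with Smarca4.4 and 1.14 (0.57 to 1.73) with Smarca4.6. Its log2 CPM was 2.95 at day 0 and -0.16 in Nons. Intervals lay above 0 for 5 of the 24 and below for 11 with Smarca4.4, beside 34.4% and 24.3% of genes tested. With Smarca4.6 they did for 7 and 11, beside 39.6% and 24.4%.

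Of the regulators of exit from the naive state, 3 of 12 were past 2-fold from day 0 to Nons, beside 31.9% of all genes tested. Of the 12, all tested, 1 was at least 2-fold lower in Nons than at day 0, and 2 (Foxp1 and Nr6a1, the latter named after its values were seen) were at least 2-fold higher, beside 12.3% and 19.6% of all genes tested. The lower one was Etv5, an ETS factor, at -1.16 (-1.21 to -1.12). In all, 7 of the 12 had an interval below 0 and 4 one above 0, most of them for differences under 2-fold. The share of all genes with such intervals was not computed for this comparison, so these counts have no background. Foxp1, whose splicing switches with pluripotency, was 4.62 (4.23 to 5.04), while Tcf7l1 was -0.20 (-0.30 to -0.10), Zfp281 0.29 (0.22 to 0.36) and Rbpj 0.13 (0.07 to 0.20). None of the 12 was 2-fold different from Nons with either hairpin, beside 1.19% of genes tested with Smarca4.4 and 1.82% with Smarca4.6. With Smarca4.4, 3 had an interval above 0 and 6 one below, beside 34.4% and 24.3% of genes tested. With Smarca4.6 the counts were 6 and 5, beside 39.6% and 24.4%.

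The formative and primed genes moved both ways. Of 14, all tested, 6 were at least 2-fold higher and 4 at least 2-fold lower in Nons than at day 0, with a median of 0.02, beside 19.6% higher and 12.3% lower over all genes tested. The lower ones were Lef1, Cdh2, Nodal and T, named after their values were seen. Fgf5, the standard marker of the formative epiblast, had 3 reads at day 0 and 3342 in Nons, a difference of 8.82 (7.27 to 11.10). Pou3f1 (Oct6) was 5.45 (5.13 to 5.79) higher, Dnmt3b, a de novo DNA methyltransferase, 2.66 (2.58 to 2.73) and Otx2 1.54 (1.43 to 1.66), whereas Dnmt3a was 0.32 (0.26 to 0.38). Against Nons 0 of the 14 were past 2-fold with Smarca4.4 (beside 1.19% of genes tested) and 1 with Smarca4.6 (beside 1.82%). That gene was T (Brachyury), a mesoderm factor, at 2.66 from a log2 CPM of -1.35 in Nons. Intervals lay above 0 for 7 of the 14 and below for 2 with Smarca4.4, beside 34.4% and 24.3% of genes tested. With Smarca4.6 the counts were 12 and 2, beside 39.6% and 24.4%. The 2 below were the same with both hairpins, Otx2 and Sox11, the latter named after its values were seen. Otx2 was at -0.42 (-0.48 to -0.36) with Smarca4.4 and -0.35 (-0.42 to -0.29) with Smarca4.6.

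Targets of the pathways that 2i and LIF act on went both ways. Of 12, 11 were tested; 5 were at least 2-fold lower and 5 at least 2-fold higher in Nons than at day 0, beside 12.3% and 19.6% of all genes tested. The lower ones were Socs3, Axin2, Il6st, Lifr and Lef1 and the higher ones Dusp6, Spry4, Egr1, Etv4 and Junb, of which all but Socs3, Axin2, Dusp6 and Spry4 were named after their values were seen. Socs3, a target of Stat3, was -2.17 (-2.32 to -2.02) and Axin2, a target of beta-catenin, -2.33 (-2.57 to -2.09). Dusp6 and Spry4, feedback inhibitors induced by ERK, were 6.84 (6.38 to 7.33) and 7.12 (5.76 to 8.99) higher, while Spry2 was -0.24 (-0.40 to -0.08). Relative to Nons 0 of the 11 were past 2-fold with Smarca4.4 (beside 1.19% of genes tested) and 2 with Smarca4.6 (beside 1.82%). Of these 2, Spry2 was at 1.18 (1.07 to 1.29) and Egr1, an immediate early gene, at 1.46. Socs3 was 0.91 (0.76 to 1.07) above Nons with Smarca4.4 and 0.62 (0.45 to 0.78) with Smarca4.6. Intervals lay above 0 for 6 of the 11 and below for 1 with Smarca4.4 (beside 34.4% and 24.3% of genes tested), and above 0 for all 11 with Smarca4.6 (beside 39.6%).

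**Figure D5:**
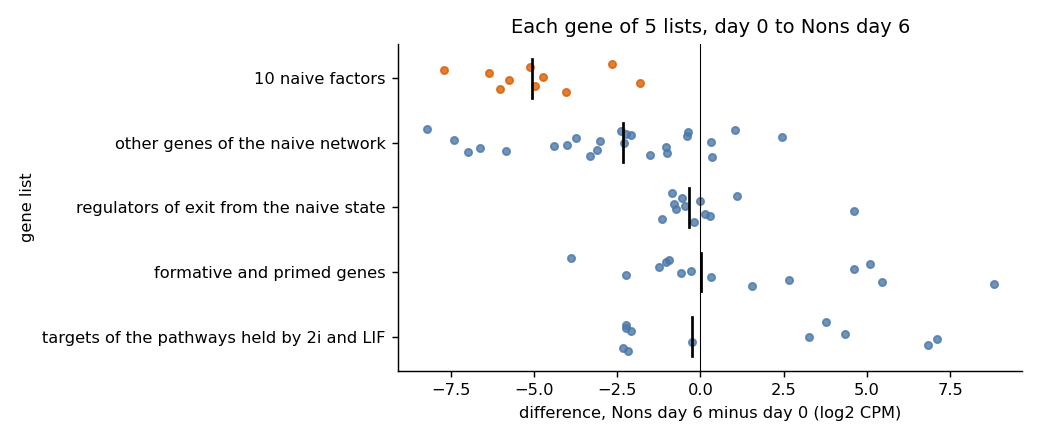
Difference from day 0 to Nons (log2 CPM) of each tested gene in the 10 naive factors and 4 lists of other genes; each point is 1 gene and the black bar is the median of its list. The 10 factors all lie below 0 with a median of -5.05, the other naive genes spread from far below to above 0, and the formative genes and pathway targets lie on both sides.

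Markers of several other cell types differed between day 0 and day 6 as well. Over all genes tested, 19.6% were at least 2-fold higher in Nons, the background for each count of higher markers here. Epithelial markers (6, of which Krt8, Krt18, Epcam and Cdh1 were tested and at least 2-fold higher in Nons) summed to 380 CPM at day 0 and 2514 to 2905 CPM at day 6. Of those untested, Krt5 was -0.56 (-2.92 to 2.13) from day 0 to Nons, and Krt14 had 0 reads at day 0 and 39 in Nons. Fibroblast and smooth muscle markers (6, of which 4 of 5 tested were at least 2-fold higher) summed to 7.15 CPM at day 0 and 579 to 941 CPM at day 6, most of it Tagln, with Acta2 and Postn at 0 reads at day 0. Germ cell markers, which matter for Prdm14 and Dppa3, summed to 1098 CPM at day 0, most of it Dazl, and 72.6 to 92.3 CPM at day 6. Of the 7, 6 were tested, and 3 were at least 2-fold lower in Nons than at day 0, beside 12.3% of genes tested. Those were Dazl at -6.62 (-6.77 to -6.47), Kit at -4.74 (-4.91 to -4.58) and Tfap2c at -2.40 (-2.53 to -2.27). Prdm1 was -0.91 (-1.14 to -0.69), Dnd1 0.28 (-0.04 to 0.60) and Ddx4 0.13 (-0.03 to 0.29). Nanos3 was at or under the 3-read limit in all 4 libraries. The 4 markers of two-cell-like cells found summed to 1.34 CPM at day 0 and 8.72, 21.5 and 11.8 CPM in the Nons, Smarca4.4 and Smarca4.6 libraries. Trophoblast markers (6, of which 3 of 4 tested were at least 2-fold higher in Nons) summed to 13.2 CPM at day 0 and 88.1 to 105 CPM at day 6. Of those untested, Cdx2 was -2.68 (-3.89 to -1.58) and Elf5 1.02 (-0.55 to 3.03) from day 0 to Nons. Primitive endoderm markers (5, of which 2 of 3 tested were at least 2-fold higher) summed to 9.57 CPM and 26.9 to 33.3 CPM, most of the latter Dab2. Their untested members were lower in Nons, Gata6 at -2.54 (-3.23 to -1.88) and Sox7 at -2.30 (-3.23 to -1.42). Endothelial markers (6, of which 1 was tested and was not past 2-fold) summed to 9.79 CPM at day 0 and 5.86 to 6.80 CPM at day 6, with Emcn at 0 reads in all 4 libraries. Of the 5 embryonic stem cell markers none was at 0 in any library, and their sum was 3009 CPM at day 0 and 1217 to 1507 CPM at day 6. They did not move alike: 3 were at least 2-fold lower in Nons and 1 higher, beside 12.3% and 19.6% of genes tested. Dppa5a was -3.02 (-3.06 to -2.99), whereas Utf1 was 2.46 (2.35 to 2.56) and Pou5f1 0.34 (0.31 to 0.37). The part of these markers in the levels of the 10 factors was not tested.

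Genes whose differences from day 0 were most like those of a factor were found by the Euclidean distance over the 3 day 6 libraries. Zfp42 had the closest partner, Lrrc2, at a distance of 0.07 on the log2 scale, followed by Myh7b at 0.08. Klf5 was nearest to Tst (0.11), Dppa3 to BC057022 and Sorl1 (0.12 each), and Klf2 to Gm949 (0.21). The nearest genes to Prdm14 were Mcf2 and Nptx1 at 0.67, a distance that is within the counting error of its 15 to 28 reads at day 6. For Tbx3 the second nearest gene was Tcl1 (0.47), itself one of the other naive genes. The remaining nearest genes were Alpk3 for Nanog (0.40), Tmc3 for Klf4 (0.26), Rhox1 for Esrrb (0.33) and Zyg11a for Tfcp2l1 (0.30). With 1 library per group these distances describe these libraries.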

How the data were processed

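RNA-seq was performed on 4 libraries of female mESCs, 1 per group. The authors used trim_galore for trimming and HISAT2 for alignment (tophat is named as well in the methods), on mm10 with strain-specific positions masked, and SeqMonk to quantify the exons of each gene, both alleles combined. The deposited values are log2 CPM. Back-transformed values were whole multiples of 1 step (within 0.1 read, for all values of up to 1000 reads), which gave the reads per gene; 0 reads had been written as 0.9 read. The genes compared were those with a mean log2 CPM of at least 0, and those at least 2-fold apart were counted; 1 library per group allows no test. The 10 factors and all gene lists were chosen with earlier results of these data known. Genes named are the 10 factors, Smarca4, the 2 genes nearest in pattern to each, the first 5 of each list and genes past 2-fold with both hairpins; any other is named as chosen after its values were seen, apart from those that define a marker list. Exon lengths and target sites came from GENCODE M21 (GRCm38, the same assembly as mm10), promoters from RefSeq. Read recovery and interval coverage were tested on simulated data. Alternatives were a pseudocount of 1 CPM, 2 scalings, 2 filters and another gene length; a further planned scaling is not reported here. Python 3.11.15 with numpy 2.4.6 and scipy 1.17.1 was used.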

Additional observations from a re-analysis of the deposited data

How the results depend on the processing

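All 10 factors stayed below day 0 and past 2-fold in each of the 3 day 6 libraries under the pseudocount and 2 scalings, centring on the median and on the trimmed mean of all genes tested. With log2(CPM + 1) the median difference from day 0 was -4.89, -4.64 and -5.04 in the Nons, Smarca4.4 and Smarca4.6 libraries. On that scale 0 factors were past 2-fold with Smarca4.6 against Nons, Tbx3 no longer being past it. Centring on the median shifted differences by at most 0.11 on the log2 scale. Against Nons it turned the sign of 1 factor of 10 with each hairpin, in both cases one whose interval held 0. The share of genes past 2-fold against Nons depended on the filter: with Smarca4.4 it was 0.187% at a mean log2 CPM of at least 3 and 8.72% with no filter, and with Smarca4.6 0.395% and 8.82%. From day 0 to Nons it was 31.9%, and 23.2% and 59.2% under these filters. To Smarca4.4 it was 29.9%, 20.9% and 57.8%, and to Smarca4.6 it was 30.6%, 21.5% and 29.6%. The no-filter shares from day 0 are not shares of changed genes. Where both libraries had 0 reads of a gene, each was written as 0.9 read, so depth alone set the difference. Emcn, undetected throughout, thus stood at -1.30 from day 0 to Nons, -1.34 to Smarca4.4 and -0.97 to Smarca4.6. Such genes count as past 2-fold except in the comparison with Smarca4.6. Taking the longest transcript as the gene length kept 5 of 10 factors in the same place of the day 0 order and 8 of 10 in each day 6 order. No paired analysis was possible because the table holds only 1 library per group, all numbered replicate 3. Depth limits Prdm14 and Tbx3 most, with 15 to 68 reads at day 6.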
